A study of Mus musculus with 6 samples.

Results

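The genes described here are 10 of the endoplasmic reticulum (ER) folding and stress machinery: Hspa5, Hsp90b1, Xbp1, Atf6, Creld2, Dnajb9, Sdf2l1, Herpud1, Pdia4 and Manf. They were chosen by name as ER chaperones or as targets of the transcription factors ATF6 and XBP1, with earlier results of these data known. The array files carry RefSeq accessions rather than gene symbols, so each symbol was found by matching the accession of a probe to the RefSeq gene table of the assembly GRCm38.p6. All 10 symbols were found, on 11 of 55681 probes, and all 10 genes were among the 24177 features tested. Of these features 14912 carried a gene symbol, and shares and medians given over all features include those without one. Each had 1 probe except Dnajb9 with 2. All 11 probes were well above background on all 6 arrays and 0 were saturated.

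Adult hippocampal precursor cells, which divide and can form new neurons, were taken from 8-week-old male C57BL6/JRj mice and kept as adherent cultures in EGF and bFGF at 20 ng/ml each. The treated group, 3 arrays, received human LDL for 48 h, at 100 ug/ml by the treatment protocol, where the descriptions of the samples give another volume unit. The control group, 3 arrays, received saline for 48 h. The replicates were independent experiments on different passages, and all 6 cultures were of the same strain and sex and grew in the same mitogens. RNA was hybridised to 1-colour Agilent arrays on 1 slide with cyanine-3 dye, and precision is limited by how few arrays there are. The LDL was human and the cells were murine, and the arrays measure mRNA levels in whole cultures, in which fewer cells of a type and less RNA per cell cannot be told apart.

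The ER is where secreted and membrane proteins fold. When unfolded proteins build up there, the sensors IRE1, PERK and ATF6 start the unfolded protein response: IRE1 splices Xbp1 mRNA so that it encodes an active transcription factor, and ATF6 travels to the Golgi, where the site-1 and site-2 proteases release its active part. The same proteases release the SREBP factors that control cholesterol synthesis, the branch that changes when cells take up LDL. ATF6 and XBP1 raise the chaperones of the ER, whereas misfolding in the cytosol is met by the separate heat shock response under HSF1. The array probes read total mRNA of Xbp1 and Atf6 and cannot show splicing or cleavage.

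ATF6 and XBP1 act through short promoter elements, and 4 of the 10 genes had one in the promoter window searched. They are shown because they mark where the classic ER stress element, or in Herpud1 its variant, matched close to the start. The ER stress element (ERSE: CCAAT, 9 bases of any kind, then CCACG) and its variant (ERSE-II: ATTGG, 1 base of any kind, then CCACG) were searched on both strands, from 250 bases before to 50 after each start in the RefSeq promoter table of GRCm38.p6. ERSE occurred in 39 of 32851 windows, or 0.119%, and ERSE-II in 12 windows, or 0.0365%. Windows existed for 8 of the 10 genes (Atf6 and Manf had none). ERSE was found in 3 of the 8, with 2 copies in Hsp90b1, and ERSE-II in 1. No ERSE-II overlapped an ERSE in these windows. The searched XBP1 element (UPRE, TGACGTGG, in 0.676% of windows) and the heat shock element (HSE: GAA, 2 bases, TTC, 2 bases, GAA, in 0.603%) were in 0 of the 8 windows, which says only that these letters are not there. In each stretch below, read 5′ to 3′ on the strand of the gene, the capitals mark the whole element with its spacer.
Hspa5, chr2:34772005-34772063, plus strand: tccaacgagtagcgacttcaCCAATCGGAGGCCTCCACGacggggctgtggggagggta
Hsp90b1, chr10:86705513-86705676, minus strand: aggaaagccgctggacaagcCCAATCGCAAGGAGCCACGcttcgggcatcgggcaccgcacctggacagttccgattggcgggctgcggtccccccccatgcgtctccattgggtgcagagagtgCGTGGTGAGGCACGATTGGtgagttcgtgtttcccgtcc
Creld2, chr15:88819500-88819558, plus strand: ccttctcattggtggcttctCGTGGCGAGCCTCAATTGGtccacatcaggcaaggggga
Herpud1, chr8:94386357-94386407, plus strand: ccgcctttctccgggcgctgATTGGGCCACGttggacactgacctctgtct
The element of Hspa5 lies 65 to 47 bases before the start and that of Herpud1 52 to 42 bases before it. In Creld2 the element runs on the opposite strand, 126 to 108 bases before the start, and in Hsp90b1 the 1st copy is on the strand of the gene and the 2nd on the opposite one. A match is a description of the letters and not a measured binding site.

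None of the 10 genes passed an adjusted p of 0.05 for LDL against saline in limma (Benjamini-Hochberg over all features), and 1, Xbp1, had an unadjusted p below 0.05. Across all features 33 of 24177 passed, or 0.136%, with 5 higher (0.0207%) and 28 lower (0.116%) after LDL. An unadjusted p below 0.05 was found for 2.97% of all features with higher and 4.53% with lower values after LDL. With median scaling of each array the split was 8 higher and 22 lower. The log2 fold changes of the 10 genes, LDL minus saline, lay between -0.06 and 0.31, with a median of 0.10, against a median of -0.03 over all features. Of the 10, 7 had a positive value, against 43.7% of all features. With median scaling, 9 of the 10 did, against 53.2% of all features, whose median was then 0.01. In 2 of the 10, Xbp1 and Atf6, all LDL arrays lay above all saline arrays, a pattern seen in 5.83% of all features, and in 0 of the 10 the reverse, which 8.79% of all features showed. Values below are log2 signals after subtracting that of the array's 75th percentile, so that 0 is that percentile, and levels of different probes are not compared.

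**Figure D1:**
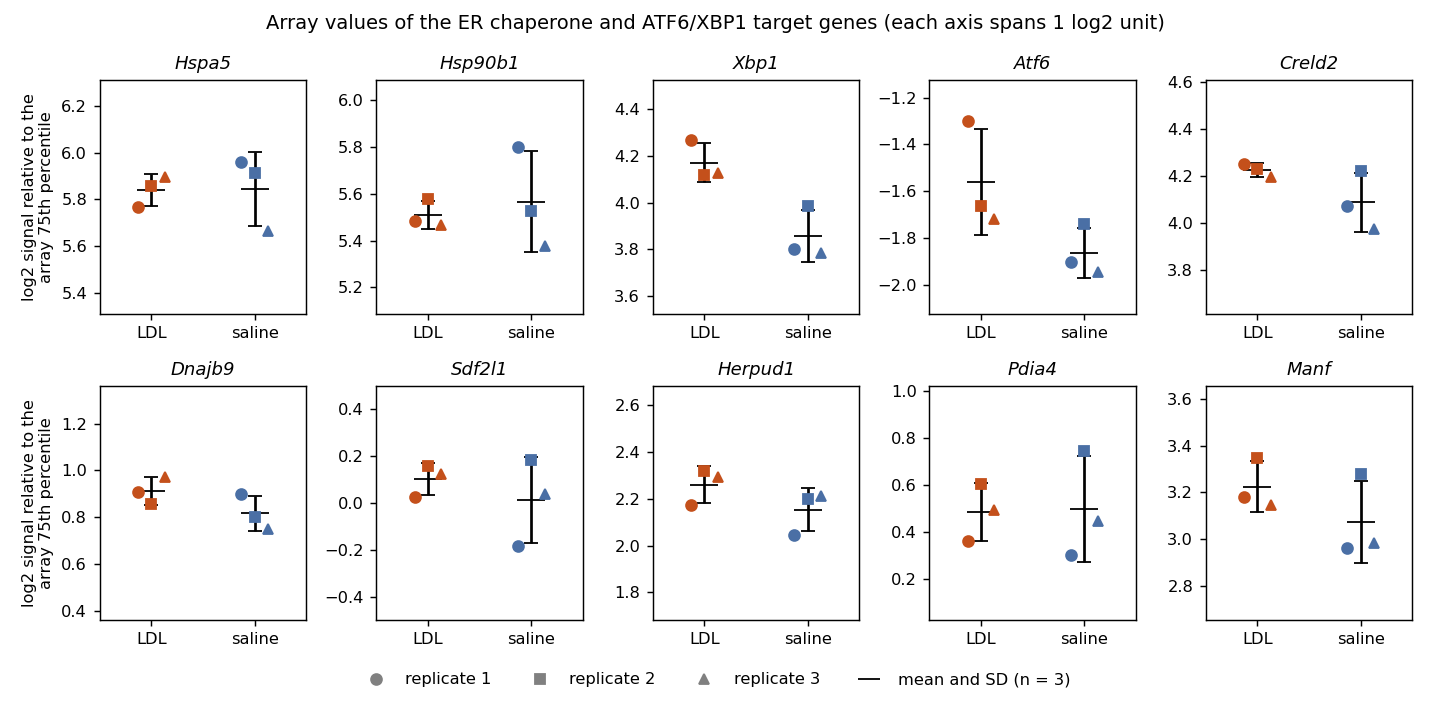
Normalized log2 signal (relative to the array 75th percentile) of the 10 ER genes on each array, LDL on the left and saline on the right of each panel, with 1 panel per gene. Symbols are replicates, bars are the mean and SD of 3 arrays, and each axis spans 1 log2 unit. The groups are separate for Xbp1 and Atf6 and overlap for the other 8 genes.

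The chaperones come first. Hspa5 (BiP), the HSP70 of the ER lumen that binds unfolded chains and keeps the sensors inactive, had 5.77, 5.86 and 5.90 on the LDL arrays, against 5.96, 5.91 and 5.66 on the saline arrays. The highest and the lowest value both came from saline arrays, and the LDL values lay between them. The means were 5.84 ± 0.07 with LDL and 5.84 ± 0.16 with saline (SD, n = 3 each), and the log2 fold change was -0.005 (SE 0.11, limma adjusted p = 0.995). As a fold the 95% interval ran from 0.826 to 1.20. The sign of so small a value was not stable: it turned positive with median scaling (0.03) and without LDL replicate 1, saline replicate 1 or saline replicate 2.

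Hsp90b1 (GRP94), the HSP90 of the ER, had 5.48, 5.58 and 5.46 with LDL, against 5.80, 5.52 and 5.38 with saline. The saline arrays spread over a wider range than the LDL arrays and enclosed them. Its log2 fold change was -0.06 (95% interval -0.37 to 0.25, limma adjusted p = 0.955), and it was 0.06 without saline replicate 1. Pdia4 (ERp72), a protein disulfide isomerase that forms and rearranges disulfide bonds, had 0.36, 0.60 and 0.49 with LDL, against 0.30, 0.74 and 0.45 with saline. Both groups overlapped over most of their range, with a log2 fold change of -0.01 (95% interval -0.35 to 0.32, limma adjusted p = 0.992), which was 0.03 with median scaling, -0.11 without saline replicate 1 and 0.11 without saline replicate 2.

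The co-chaperones and soluble folding factors had small positive values. Dnajb9 (ERdj4), an HSP40 that works with BiP and is a target of XBP1, had 0.91, 0.85 and 0.97 with LDL, against 0.90, 0.80 and 0.75 with saline. Its 2nd, dimmer probe had -3.24, -2.89 and -2.97 with LDL, against -3.33, -3.18 and -3.19 with saline. LDL replicate 1 overlapped the saline arrays on the dimmer probe and LDL replicate 2 did so on the brighter one. The log2 fold changes were 0.10 (adjusted p = 0.876 in limma) for the brighter probe and 0.20 (adjusted p = 0.825 in the limma fit of single probes) for the dimmer one. The brighter probe had 0.06 without saline replicate 3, and 0.03 among the 4 arrays in row 1 of the slide and 0.22 between the 2 arrays of row 2.

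Sdf2l1, a component of BiP-containing chaperone complexes, had 0.03, 0.16 and 0.12 with LDL, against -0.18, 0.18 and 0.04 with saline. The highest and the lowest arrays were again both saline. Its log2 fold change was 0.09 (95% interval -0.20 to 0.38, limma adjusted p = 0.918) and -0.01 without saline replicate 1 and 0.17 without saline replicate 2.

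Creld2, a secreted ER stress protein with disulfide isomerase activity, was the most densely sampled of the 10, with 10 spots of its probe on each array. It had 4.25, 4.23 and 4.20 with LDL, against 4.07, 4.22 and 3.97 with saline. The SD among the 10 spots of an array was between 0.04 and 0.05, while the SD between arrays was 0.03 with LDL and 0.13 with saline. Saline replicate 2 reached the LDL arrays, and the other two saline arrays lay below them. The log2 fold change was 0.14 (95% interval -0.11 to 0.38, limma adjusted p = 0.83), and it was 0.08 without saline replicate 3.

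Manf, a BiP-binding factor that protects neurons and is secreted under ER stress, had 3.18, 3.35 and 3.15 with LDL, against 2.96, 3.28 and 2.98 with saline. As for Creld2, saline replicate 2 lay among the LDL arrays and the other saline arrays below them. Its log2 fold change was 0.15 (95% interval -0.15 to 0.45, limma adjusted p = 0.844), and leaving out 1 array gave between 0.09 (LDL replicate 2) and 0.25 (saline replicate 2). Herpud1, an ER membrane protein that assists the degradation of misfolded proteins, had 2.17, 2.32 and 2.29 with LDL, against 2.05, 2.20 and 2.21 with saline. LDL replicate 1 lay below 2 saline arrays. The log2 fold change was 0.11 (95% interval -0.13 to 0.35, limma adjusted p = 0.865), and it was 0.05 without saline replicate 1.

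The transcription factors had the 2 highest values of the set. Xbp1, the factor whose mRNA IRE1 splices, had 4.27, 4.12 and 4.13 with LDL, against 3.80, 3.99 and 3.78 with saline. All 3 LDL arrays lay above all 3 saline arrays. The means were 4.17 ± 0.08 with LDL and 3.86 ± 0.11 with saline (SD, n = 3 each), a log2 fold change of 0.31 (SE 0.11, 95% interval 0.06 to 0.57), or 1.24-fold. It did not pass over all features (limma adjusted p = 0.55), and 911 features, itself included, had a p at or below its own. With 1 array left out the value stayed between 0.27 and 0.38.

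Atf6, the ER membrane sensor and factor itself, had -1.30, -1.66 and -1.72 with LDL, against -1.90, -1.74 and -1.95 with saline. The groups did not overlap, but LDL replicate 1 stood well above the other LDL arrays, which lay just above saline replicate 2. The means were -1.56 ± 0.23 with LDL and -1.86 ± 0.11 with saline (SD, n = 3 each), a log2 fold change of 0.30 (95% interval -0.03 to 0.63, limma adjusted p = 0.707). Without LDL replicate 1 it was 0.17.

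**Figure D2:**
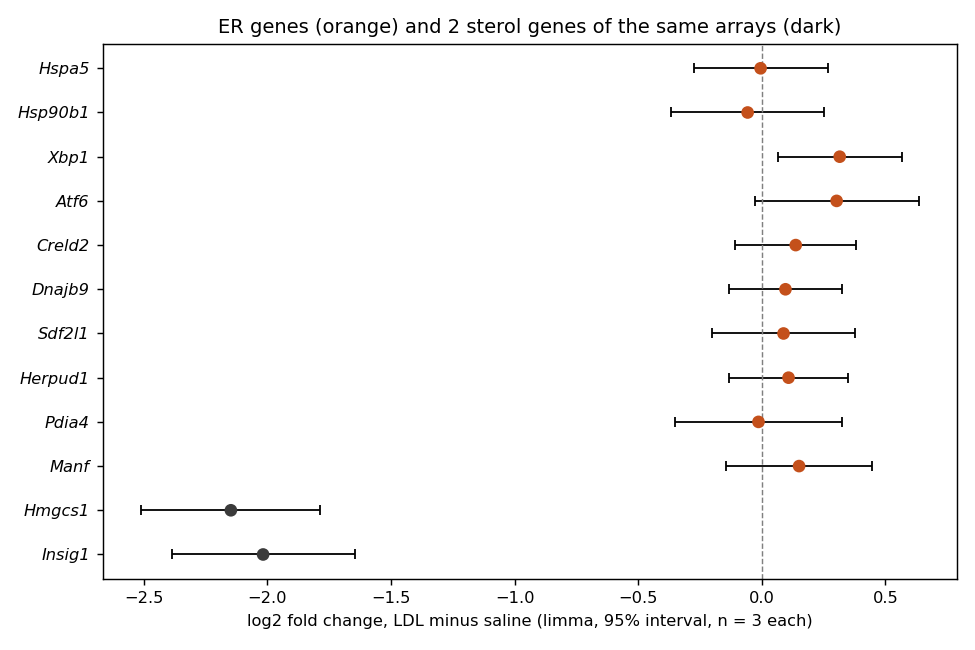
Log2 fold change, LDL minus saline, of the 10 ER genes (orange) and of 2 sterol genes on the same arrays (dark), with limma 95% intervals (n = 3 each) and a dashed line at 0. The interval of Xbp1 lies above 0 before any adjustment and those of the other 9 ER genes include 0, while Hmgcs1 and Insig1 lie near -2.

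For scale, 2 sterol genes on the same arrays differed by far more. Hmgcs1, which makes HMG-CoA, fell: it had 3.93, 3.41 and 3.60 with LDL, against 5.85, 5.88 and 5.65 with saline, or -2.15 in log2 fold change (95% interval -2.51 to -1.79, limma adjusted p = 0.00956). Insig1, which holds the SREBP escort in the ER, fell likewise, by a log2 fold change of -2.02 (95% interval -2.39 to -1.65, limma adjusted p = 0.0106). Neither interval overlaps that of any of the 10 ER genes. Of the 10 sterol genes on the list they belong to, 8 passed, all lower, and the median was -1.94; LDL is known to lower such genes, and the list was chosen with that result known.

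The genes with an ERSE had values on both sides of 0. Hspa5 and Hsp90b1 had log2 fold changes of -0.005 and -0.06, and Creld2 had 0.14, while Xbp1, with no match to the letters searched, had 0.31. In the whole promoter table, 37 genes had an ERSE in a window, and 19 of them were tested on these arrays. Of these 19, 10 are on the lists of ER genes used here, among them Calr, Canx, Pdia6, Dnajc3 and Syvn1. The log2 fold changes of the 19 had a median of -0.02 and ran from -0.31 to 0.26, with 7 positive and 12 negative, and 0 passed in limma.

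The wider ER folding list held 22 further chaperones, disulfide isomerases and oxidases, all tested. Of them, 0 passed in either direction, 16 were positive and 6 negative, and the median log2 fold change was 0.06. That median was 0.02 without saline replicate 3, 0.04 without LDL replicate 1, 0.11 without saline replicate 2 and 0.11 with the mean over the probes of a gene. In 2 of the 22 the groups did not overlap, both higher after LDL, against 5.83% of all features in that direction. The 4 with the smallest p were Ero1a, Ero1b, Txndc11 and Hyou1. Ero1a, an oxidase that supplies disulfide bonds to the isomerases, had -0.87, -1.14 and -1.20 with LDL, against -1.70, -1.73 and -1.73 with saline. Its arrays were separate by more than the spread within either group, with a log2 fold change of 0.65 (SE 0.12, 95% interval 0.38 to 0.92), or 1.57-fold. It did not pass over all features (limma adjusted p = 0.204), and with 1 array left out it ranged from 0.55 to 0.71. Ero1b, the second such oxidase, had 0.26 (limma adjusted p = 0.779) and 0.13 without LDL replicate 1. Txndc11, a thioredoxin-domain protein, had 0.17 (adjusted p = 0.781 in limma). Hyou1, a large HSP70-like chaperone of the ER, had 0.29 (adjusted p = 0.827 in limma), which was 0.05 without saline replicate 1 and 0.46 without saline replicate 2. The lectin chaperones gave 0.04 for Calr and -0.13 for Canx, both chosen here after their values were seen.

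Genes of ER-associated degradation, which exports misfolded proteins to the proteasome, had a median of 0.07 over 20 tested, with 13 positive, 7 negative and 0 passing in limma. In 5 of the 20 the groups did not overlap, all of them higher after LDL, against 5.83% of all features in that direction. The ubiquitin ligase Syvn1 (HRD1) had 4.05, 4.03 and 4.03 with LDL, against 3.82, 3.83 and 3.72 with saline. Sel1l, its partner in the membrane, had 1.05, 1.08 and 1.13 with LDL, against 0.85, 0.86 and 0.79 with saline. For both, the spread within each group was smaller than the gap between the groups, with log2 fold changes of 0.25 (adjusted p = 0.596 for Syvn1 and 0.588 for Sel1l in limma). With 1 array left out, Syvn1 ranged from 0.21 to 0.27 and Sel1l from 0.23 to 0.27. Derl1, a channel subunit, had 0.32 (limma adjusted p = 0.611), but its 2nd probe had 0.04. Selenos, which recruits the extracting ATPase, had 0.23 (limma adjusted p = 0.724).

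**Figure D3:**
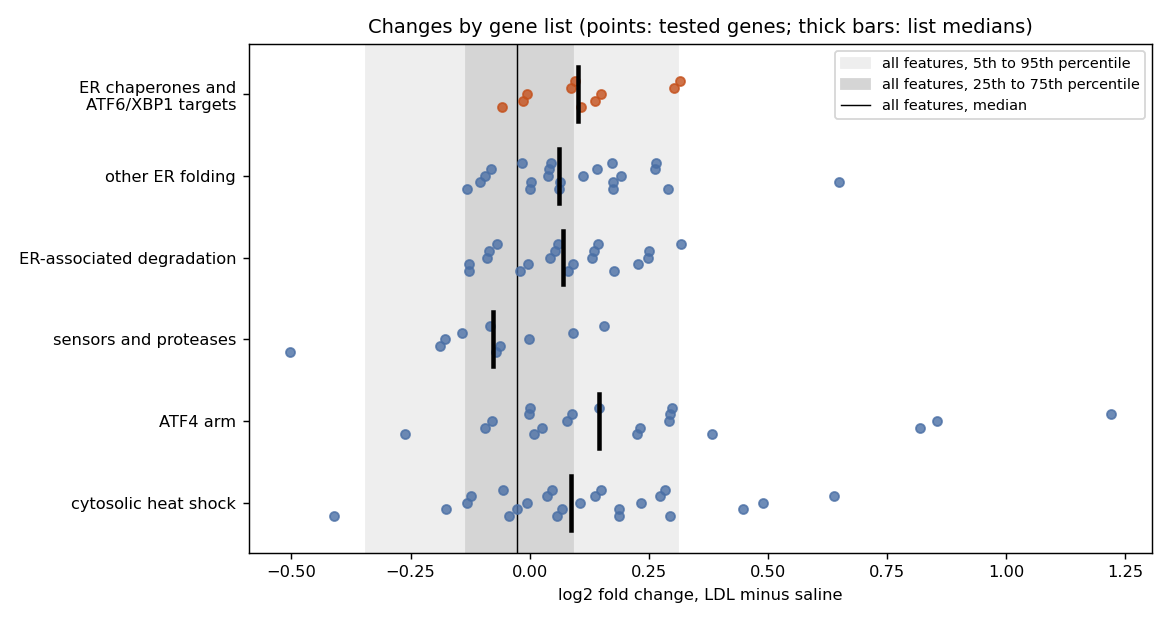
Log2 fold change, LDL minus saline, of every tested gene (points) in 6 gene lists, with list medians as thick bars. The grey bands are the 5th to 95th and the 25th to 75th percentiles of all features, and the thin line is their median of -0.03. List medians lie between -0.08 and 0.15, and most points fall within the wider band.

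The list of sensors, related membrane factors and their proteases had a median of -0.08 over 10 tested, with 2 positive, 8 negative and 0 passing. In 2 of the 10 the groups did not overlap, both lower after LDL, against 8.79% of all features in that direction. Creb3l4, a membrane-bound relative of ATF6, had -0.50 (limma adjusted p = 0.523). Its probe was dim, with a highest processed signal of 84.4 on any array. Creb3l2, another such relative, had -0.19 (limma adjusted p = 0.822), which was -0.06 without LDL replicate 1. The proteases that cleave both ATF6 and the SREBPs differed in sign. Mbtps1, the site-1 protease, had 4.37, 4.42 and 4.42 with LDL, against 4.60, 4.68 and 4.46 with saline, a log2 fold change of -0.18 (limma adjusted p = 0.772). Its LDL arrays lay below its saline arrays, though its 2nd probe had -0.05. Mbtps2, the site-2 protease, had 0.16 (limma adjusted p = 0.837), with 0.03 for its 2nd probe. Without LDL replicate 2 it was 0.07 and without LDL replicate 3 it was 0.24. The sensors IRE1 (Ern1) at -0.06 and PERK (Eif2ak3) at -0.14, named after their values were seen, did not pass either.

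Genes of the ATF4 arm, which PERK and other kinases switch on, had a median of 0.15 over 19 of 20 tested (Fgf21 was not well above background in enough arrays), with 15 positive, 4 negative and 0 passing. Its range was wider than that of the 10 ER genes. Slc7a11, the cystine importer, had 2.28, 1.12 and 1.19 with LDL, against 0.30, 0.25 and 0.37 with saline. The groups were separate, and LDL replicate 1 lay well above the other LDL arrays. The log2 fold change was 1.22 (limma adjusted p = 0.425), and 0.84 without LDL replicate 1. Trib3, an inhibitor of AKT, had 4.82, 4.29 and 4.13 with LDL, against 4.01, 3.48 and 3.18 with saline. Replicate 1 was the highest array in both groups. The log2 fold change of Trib3 was 0.85 (limma adjusted p = 0.51). Leaving out 1 array gave between 0.65 (LDL replicate 1) and 1.08 (saline replicate 1). Ddit3 (CHOP), the factor of the late stress response, had 0.82 (limma adjusted p = 0.645). It was 0.43 without LDL replicate 1 and 1.02 without LDL replicate 3. Its replicate 1 was likewise the highest array of each group, at 0.06 with LDL and -1.19 with saline. Stc2, a secreted calcium-regulating protein, had 0.29 (limma adjusted p = 0.702) and 0.18 without saline replicate 1. Atf4 itself had 0.03, a value picked out after it was seen.

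In the cytosolic heat shock list, 24 of 25 genes were tested and Hspa1b had no matched probe. The median was 0.09, with 16 positive, 8 negative and 0 passing, beside the median of 0.10 with 7 positive and 3 negative among the 10 ER genes. The groups did not overlap in 4 of the 24 (3 higher, Hspa1a among them, and 1 lower) and in 2 of the 10 ER genes, against 14.6% of all features in either direction. The medians moved with single arrays: without saline replicate 3 they were 0.09 for the 10 ER genes and 0.04 for the heat shock genes, and without saline replicate 2 they were 0.15 and 0.17, the opposite order. Without saline replicate 1 they were 0.08 and 0.06. No test was made of a difference between the 2 lists. Bag3, a co-chaperone of HSP70 and an HSF1 target, had 3.15, 3.03 and 3.04 with LDL, against 2.82, 2.38 and 2.68 with saline, a log2 fold change of 0.45 (limma adjusted p = 0.51). Hspa1a, the inducible HSP70, had -3.43, -3.68 and -3.64 with LDL, against -4.17, -4.62 and -3.88 with saline. Its probe was dim, well above background on 3 LDL arrays but on 2 saline arrays, so it was tested only because of the LDL arrays, where it was higher. The difference was 0.64 (limma adjusted p = 0.51) and 0.34 with normexp and quantile normalization, and the near-identical Hspa1b may share the probe. The small heat shock protein Cryab went the other way, with 3.37, 3.27 and 3.19 with LDL, against 3.83, 3.80 and 3.43 with saline. Its log2 fold change was -0.41 (limma adjusted p = 0.55), and -0.32 for its 2nd probe. Hsph1, a large cytosolic HSP, had 0.27 on both of its probes (limma adjusted p = 0.728 for the brighter), and 0.16 without saline replicate 1. The main cytosolic chaperones Hspa8 at -0.06 and Hsp90ab1 at -0.13, picked out after they were seen, did not pass, like their ER counterparts Hspa5 and Hsp90b1.

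**Figure D4:**
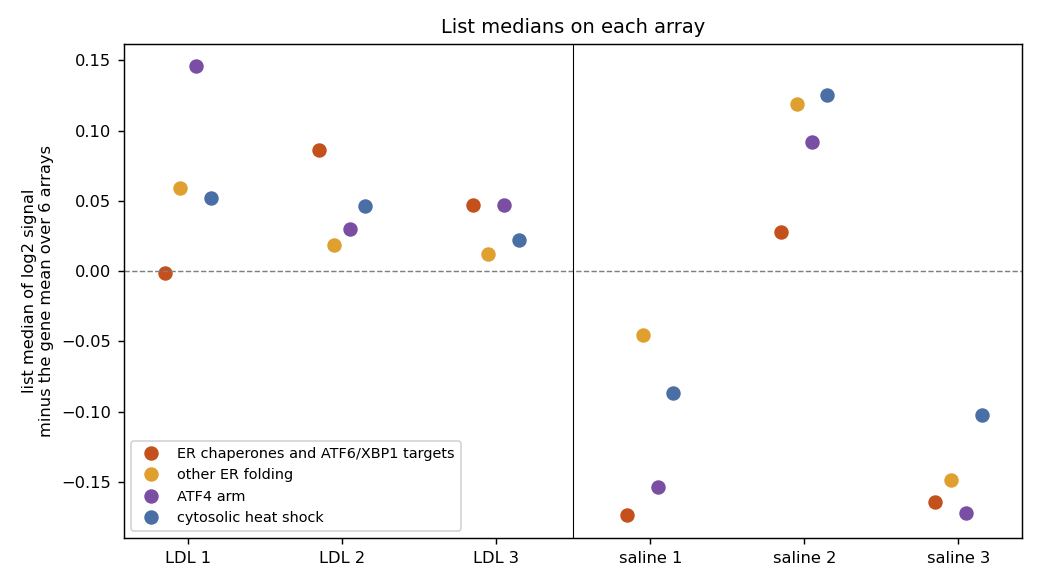
Median over the genes of 4 lists, on each array, of the log2 signal minus the gene's mean over the 6 arrays, with LDL arrays left of the line and saline arrays right of it. On saline replicates 1 and 3 all 4 medians are below 0, and on saline replicate 2 all 4 are above 0.

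The saline arrays differed among themselves. For the 10 ER genes, the list median of the log2 signal, each gene centred on its mean over the 6 arrays, was -0.0011, 0.09 and 0.05 on LDL replicates 1 to 3, against -0.17, 0.03 and -0.16 on saline replicates 1 to 3. Cytosolic heat shock genes had 0.05, 0.05 and 0.02 on the LDL arrays, against -0.09, 0.13 and -0.10 on the saline arrays. Saline replicate 2 was thus the high saline array for both lists. The share of probes well above background was 59.7% to 65.8% on the LDL arrays, against 66.5%, 55.9% and 66.9% on saline replicates 1 to 3, so that saline replicate 2 was also the lowest of the 6 in this share. The part of this in the values above was not tested. The median within-group SD over all features was 0.105 with LDL and 0.188 with saline. Without saline replicate 2, 9 of the 10 ER genes had a positive log2 fold change and their median was 0.15. Of the 24 heat shock genes 18 did, with a median of 0.17, against 40.2% of all features, whose median was -0.06. In that setting 0 of the 10 ER genes passed in limma, and over all features 0 passed higher and 3 lower. The features with an unadjusted limma p under 0.05 then numbered 3773, against 1814 with all 6 arrays.

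**Figure D5:**
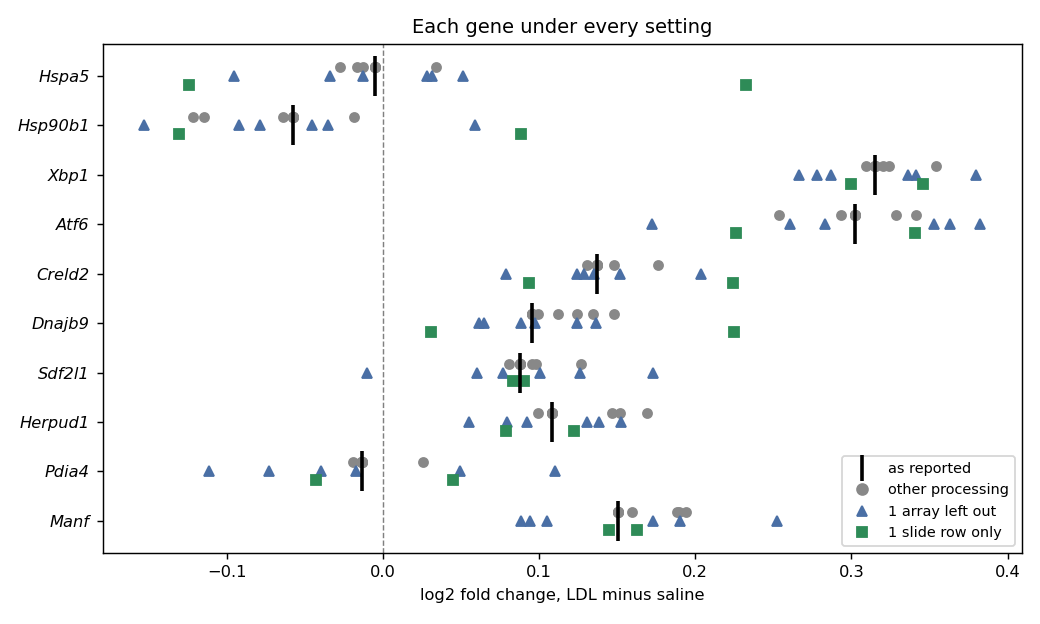
Log2 fold change, LDL minus saline, of each of the 10 ER genes under every setting: as reported (black bar), other processing (grey circles), 1 array left out (blue triangles) and 1 slide row only (green squares). Xbp1, Atf6, Creld2, Dnajb9, Herpud1 and Manf stay above 0 in all of these settings, and Hspa5, Hsp90b1, Sdf2l1 and Pdia4 cross it in some. Blocks, trended variances, other background filters and the keeping of flagged spots leave the fold changes of these genes as reported, so no sign could change there.

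The arrays lay in 2 rows of the slide, with 2 LDL and 2 saline arrays in row 1 and 1 of each in row 2. Within row 1 the median of the 10 ER genes was 0.09, with 7 positive, and within row 2 it was 0.19, with 10 positive and no test. Over all features, 44% were positive in row 1 and 48.1% in row 2. Cytosolic heat shock genes had medians of 0.05 in row 1 and 0.14 in row 2.

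The named genes whose profile over the 6 arrays lay nearest to that of Hspa5, by the root mean square difference of centred log2 values, were Rpl31-ps12 at 0.02, and Lamp3, Eloc, Atp5md and Trim13 at 0.03 each. All 5 were lowest on saline replicate 3, as Hspa5 was, and their log2 fold changes lay between -0.04 and 0.02. They were picked for nearness to Hspa5 on these same arrays, so this likeness follows from the choice. None is on the ER lists. Among the other 9 ER genes, the nearest was Dnajb9 at 0.09 and the farthest Atf6 at 0.24, and Dnajb9 was only number 1468 among all features in nearness to Hspa5.

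Most precursor markers were detected in the cultures, which by itself does not tell which cells the cultures held. Of 8 precursor markers, 7 were tested, among them Nes, Sox2, Vim and Fabp7, while Prom1 was well above background on only 2 arrays of each group. Markers of other cells were measured too: 5 of 7 neuronal, 5 of 6 astrocyte, 6 of 6 oligodendrocyte, 4 of 6 microglial and 3 of 6 vascular genes were tested, among them Tubb3, Mbp and Csf1r. The neuronal markers Dcx and Neurod1, the astrocyte marker Gjb6, the microglial marker P2ry12 and the vascular markers Cdh5 and Pdgfrb were well above background on 0 arrays. The median log2 fold changes were -0.10 for precursor, -0.12 for neuronal, -0.22 for astrocyte, 0.02 for oligodendrocyte, -0.11 for microglial and -0.10 for vascular markers. Within these lists 1 gene passed in limma, the astrocyte marker Gfap, which was higher after LDL (log2 fold change 1.35, adjusted p = 0.0213). Of the 5 astrocyte markers tested it was the only positive one, and 4 were negative, with 0 passing lower.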

How the data were processed

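Per the file headers, the authors' scanner files hold intensity values on a linear scale, background-subtracted and detrended by Agilent Feature Extraction (10.7.3.1 per the submitters' processing notes, which also list R 3.4.4 and limma 3.34.9) and not normalized between arrays. A second deposited table holds the authors' log2 values, aligned between arrays by a method not given in the sources used here; column medians lay between 6.74 and 6.76.

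Here log2 of the processed signal minus the array's 75th percentile was used. Control and outlier-flagged spots were left out and spots of a probe averaged, and 124 probes with no unflagged spot on some array were dropped. A probe was tested if well above background (at least 50% of its spots) on all 3 arrays of a group, and the brightest stood for a gene. Of 55681 probes, 28331 matched a RefSeq symbol. limma 3.58.1 in R 4.3.3 (lmFit, eBayes, two-sided, no covariates) was applied to all features, with Benjamini-Hochberg adjustment. It was also tested on simulated data, with no outcome given here. With 3 arrays a side, the smallest two-sided p of an exact permutation is 0.1. p-values measure the spread between experiments on different passages.

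The 10 genes and all lists were chosen with earlier results of these data known, so lists are described by counts and medians only. Named genes were the 10, up to 4 genes of smallest p in each described list, Hmgcs1, Insig1 and the 5 profiles nearest to Hspa5. Older symbols were updated by synonyms. Alternatives were quantile or median scaling, normexp (offset 50), the authors' values, other filters and probe rules, blocks, trended variances, and arrays left out. Same-numbered LDL and saline arrays had deviations that correlated across genes at 0.24, -0.08 and 0.20, and differently numbered arrays at -0.27 to 0.08. The labels state no pairs, and the numbers were not taken as pairs in the main fit. Whether same-numbered arrays share a passage was not tested. Promoter sequences are from RefSeq (GRCm38.p6), and figures were drawn with matplotlib 3.10.9.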

Additional observations from a re-analysis of the deposited data

How the results depend on the processing

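None of the 10 ER genes passed in any of the settings with a test, those with 1 array left out included, and the smallest adjusted p in limma was 0.293 (Xbp1, without saline replicate 2). With the replicate block, which leaves fold changes as they are, 3 features were higher and 11 lower. The smallest adjusted p of the 10 in limma was then 0.584. The labels give same-numbered arrays only a shared number. Of values near 0, Hspa5 turned to 0.034 with median scaling and to 0.2326 in slide row 2, Pdia4 to 0.0256 and 0.0451, and Hsp90b1 to 0.0886 in slide row 2. With 1 array left out, Hspa5 ran from -0.0952 to 0.0516, Hsp90b1 from -0.1527 to 0.0589, Pdia4 from -0.1113 to 0.1101 and Sdf2l1 from -0.0101 to 0.1727. In slide row 2 alone the median of the 10 was 0.19 and that of the other ER folding genes 0.17, while with 1 array left out they ran from 0.0766 to 0.1516 and from 0.0197 to 0.1102. The 5 features higher after LDL became 8 with median scaling, 9 with normexp and quantile normalization, 8 with the authors' values, 16 with trended robust variances, 0 with slide row as a block and 3 with flagged spots kept where a probe had no other, a setting added after the data were seen. Of the 28 lower, a block on slide row left a count of 15. Both counts were 0 without the background filter (1775 features at an unadjusted p under 0.05) and in slide row 1 (860). With 1 array left out the counts ran from 0 to 7 higher and from 0 to 25 lower: 0 in either direction without LDL replicate 2 (995 at an unadjusted p under 0.05), LDL replicate 3 (1372) or saline replicate 3 (1556), 3 lower without saline replicate 2 and 18 lower without LDL replicate 1. Fewer arrays leave fewer degrees of freedom; otherwise the cause was not tested. Dim signals such as Hspa1a limit precision.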
